A study of Mus musculus with 15 samples.

Results

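Expression of 10 genes for enzymes that make, inactivate, or modify estrogens was examined in the mouse uterus after estradiol (E2) or estriol (E3). The genes were Hsd17b1, Hsd17b2, Hsd17b4, Hsd17b11, Hsd17b12, Sult1e1, Cyp1a1, Cyp1b1, Cyp19a1, and Sts. They were taken by name from the 27962 gene names on the array, by a rule that uses no measured value, although earlier results of these data were known when the rule was written. For 9 of them, probes carrying the symbol were taken. The array has no probe called Hsd17b11, and the 3 probes it names Dhrs8, an older symbol of the same gene, were taken in its place, which gave 15 probes in all.

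The samples were 15 one-color arrays, 3 for each of 5 groups, from adult female mice of 10 weeks or older that had been ovariectomized and rested for 10 to 14 days. Each mouse was injected once with 100 µl of saline or with 250 ng of E2 or E3 in that volume. Uteri were taken 24 hr after saline, and 2 or 24 hr after E2 and after E3. The 12 saline, E3, and 24-hr E2 arrays are labeled as strain C57bl6/J, and the 3 arrays of E2 at 2 hr as C57bl6/Jx129 mice with a WT esr1 genotype. Those 3 arrays were also read on another scanner and another day, on slides that hold no other group, so strain, scanner, slide, and treatment cannot be told apart for E2 at 2 hr. The 24-hr E2 and the 24-hr E3 arrays were each on slides of their own too, so slide and treatment cannot be told apart in any 24-hr comparison. No saline array at 2 hr was analysed here, and both times were set against the 24-hr saline arrays. The labels say that each uterus was homogenized by itself and the methods speak of pooled tissue. The p-values therefore measure the spread between arrays of a group, whatever that spread holds. In limma this spread was pooled over the 5 groups and moderated across probes, so each comparison also draws on groups outside it. The arrays measure whole tissue, in which fewer cells of a type and less RNA per cell cannot be told apart.

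Estrogens are made from androgens by aromatase and interconverted in target tissues. The reductive hydroxysteroid dehydrogenases turn the weak estrogen estrone into E2, and the oxidative ones turn E2 back into estrone. Sulfation by estrogen sulfotransferase yields a conjugate that does not bind the receptor, and steroid sulfatase removes the sulfate. The P450 enzymes of the CYP1 family hydroxylate estrogens to catechol estrogens, and their genes are known targets of the Ah receptor. In the rodent uterus these enzymes set how much active hormone reaches the receptor in the epithelium and stroma. E3 differs from E2 by 1 additional hydroxyl group on the D ring of the steroid.

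Promoter sequence was matched for 6 of the 10 genes (Hsd17b11, Hsd17b12, Sult1e1, Cyp1a1, Cyp1b1, and Cyp19a1). The 4 sequences below are the 250 bases before the start of genes that changed in at least 1 group and that hold a match to a motif of the 2 receptors named above. They are from RefSeq (GRCm38.p6) and lie at chr9:57697363-57697612 on the + strand (Cyp1a1), chr17:79715062-79715311 on the - strand (Cyp1b1), chr5:104021797-104022046 on the - strand (Hsd17b11), and chr5:87591612-87591861 on the - strand (Sult1e1). Capitals mark the estrogen response element half-site GGTCA and the Ah receptor core GCGTG, read on either strand.
Cyp1a1: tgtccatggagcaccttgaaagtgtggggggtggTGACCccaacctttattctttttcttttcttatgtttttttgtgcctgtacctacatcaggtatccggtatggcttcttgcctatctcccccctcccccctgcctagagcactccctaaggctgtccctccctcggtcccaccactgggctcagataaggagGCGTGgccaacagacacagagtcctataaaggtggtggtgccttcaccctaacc
Cyp1b1: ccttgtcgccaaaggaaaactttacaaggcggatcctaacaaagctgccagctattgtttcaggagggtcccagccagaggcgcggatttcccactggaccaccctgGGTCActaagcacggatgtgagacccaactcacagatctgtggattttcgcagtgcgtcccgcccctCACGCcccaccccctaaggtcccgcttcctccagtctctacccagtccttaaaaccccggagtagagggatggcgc
Hsd17b11: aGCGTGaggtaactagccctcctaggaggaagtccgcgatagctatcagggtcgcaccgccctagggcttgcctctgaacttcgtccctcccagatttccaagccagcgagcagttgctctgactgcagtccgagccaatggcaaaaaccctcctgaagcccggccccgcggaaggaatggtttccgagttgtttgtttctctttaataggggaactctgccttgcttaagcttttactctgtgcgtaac
Sult1e1: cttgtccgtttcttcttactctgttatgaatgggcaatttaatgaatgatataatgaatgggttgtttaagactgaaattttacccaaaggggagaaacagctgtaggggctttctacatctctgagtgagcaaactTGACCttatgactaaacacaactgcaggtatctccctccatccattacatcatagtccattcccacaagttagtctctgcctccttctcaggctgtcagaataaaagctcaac
Cyp1a1 and Cyp1b1 each hold a match of both motifs, Hsd17b11 holds GCGTG, and Sult1e1 holds GGTCA. Single matches of this kind are common, since 35.2% of the 32841 promoters in the table hold GGTCA and 28.2% hold GCGTG in the same 250 bases. The full palindromic estrogen response element was found in 0.0639% of all promoters and in 0 of the 8 promoters of these genes. A match is a description of the letters and not a binding site.

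Values are given as normalized log2 levels, that is log2 of the background-subtracted signal minus log2 of the 75th percentile of the array, so that 0 is the level of the 75th percentile. A probe was called changed when limma gave a p-value below 0.001 and the change was at least 2-fold, and beside it stands the p-value adjusted by the Benjamini-Hochberg method across every probe tested. Levels of different probes were not compared with each other. Signals well above background were found on 15 of 15 arrays for Hsd17b1, Hsd17b4, Hsd17b11, Hsd17b12, Cyp1b1, and Sts, on 12 for Cyp1a1, on 11 for Sult1e1, and on 10 for Hsd17b2. Cyp19a1, the gene of aromatase, was not well above background on 14 of 15 arrays with its brightest probe (chr9:54196600-54196659 in mm7, the build of the array annotation), and its other probe was above background on 0 of 15 arrays. The single array above background belonged to the E2 24-hr group, and Cyp19a1 was not tested.

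**Figure D1:**
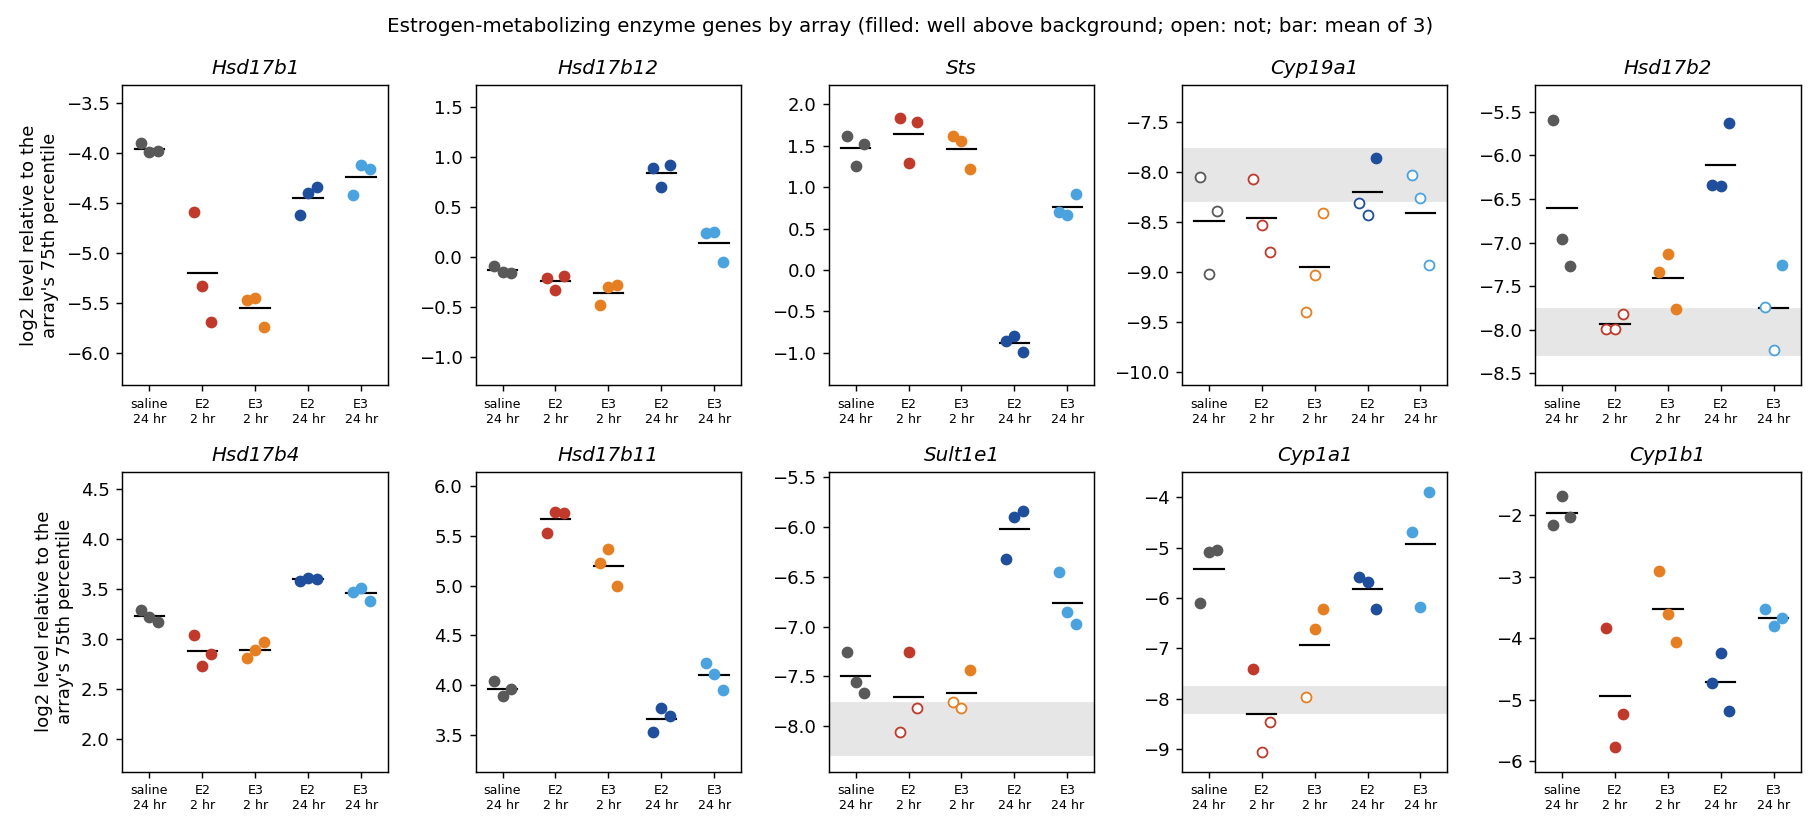
Normalized log2 level of the 10 genes on each of the 15 arrays, by group, with 1 panel per gene (brightest probe). Points are arrays (filled where well above background), bars are means of 3 arrays, and the gray band spans the lowest level well above background on the arrays, -8.29 to -7.76. Hsd17b11 stands high in both 2-hr groups, Cyp1b1 is highest on the saline arrays, and Sts is lowest on the 3 arrays of E2 at 24 hr.

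The liver sum, the summed level of 16 liver marker genes as multiples of the 75th percentile, differed between the groups and bears on every comparison with saline. It lay at 8.89 to 30.3 on the saline arrays, 2.80 to 5.90 after E3 at 2 hr, 0.464 to 0.597 after E2 at 2 hr, 0.689 to 0.814 after E2 at 24 hr, and 0.676 to 1.16 after E3 at 24 hr. All 16 markers were above background on the saline and 2-hr E3 arrays, 6 to 8 on the 2-hr E2 arrays, and 12 to 14 on the 24-hr arrays. Exocrine pancreas markers summed to 662 and 12.8 on replicates 2 and 3 of E3 at 2 hr and to 302 and 5.71 on replicates 2 and 3 of E2 at 24 hr, against 0.316 to 0.685 on the other 11 arrays. Skeletal muscle markers were highest after E2 at 24 hr (23.2 to 28.1) and lay at 7.28 to 8.27 on the saline arrays. Fat markers summed to 13.4 to 20.8 after E2 at 24 hr, 13.9 to 72.3 after E3 at 24 hr, and 19.0 to 98.7 on the saline arrays. All 17 uterine markers were above background on every array. Of 10 ovary markers, 5 to 8 were above background on each array, Zp2 and Lhcgr on none, and the list summed to 0.611 to 1.32. The part of these other tissues in the changes below was not tested.

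At 2 hr of E2, 4 of the 9 tested genes were called, 1 higher (Hsd17b11) and 3 lower (Hsd17b1, Cyp1a1, Cyp1b1), where 21.2% of all 34766 tested probes were called. At 2 hr of E3, 2 genes were called, Hsd17b11 higher and Hsd17b1 lower, against 13.8% of all probes. At 24 hr of E2, 3 genes were called, Sult1e1 higher and Cyp1b1 and Sts lower, against 18.1% of all probes. At 24 hr of E3, none of the 9 was called by limma at these cutoffs, against 3.81% of all probes, and 6 of 9 had an unadjusted p-value under 0.05 (44.4% of all probes). The median log2 fold change of the 9 genes was -0.35, -0.34, -0.30, and 0.14 in these 4 comparisons, and that of all probes -0.08, -0.11, -0.06, and -0.01. The genes are described below by the role of their enzymes.

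**Figure D2:**
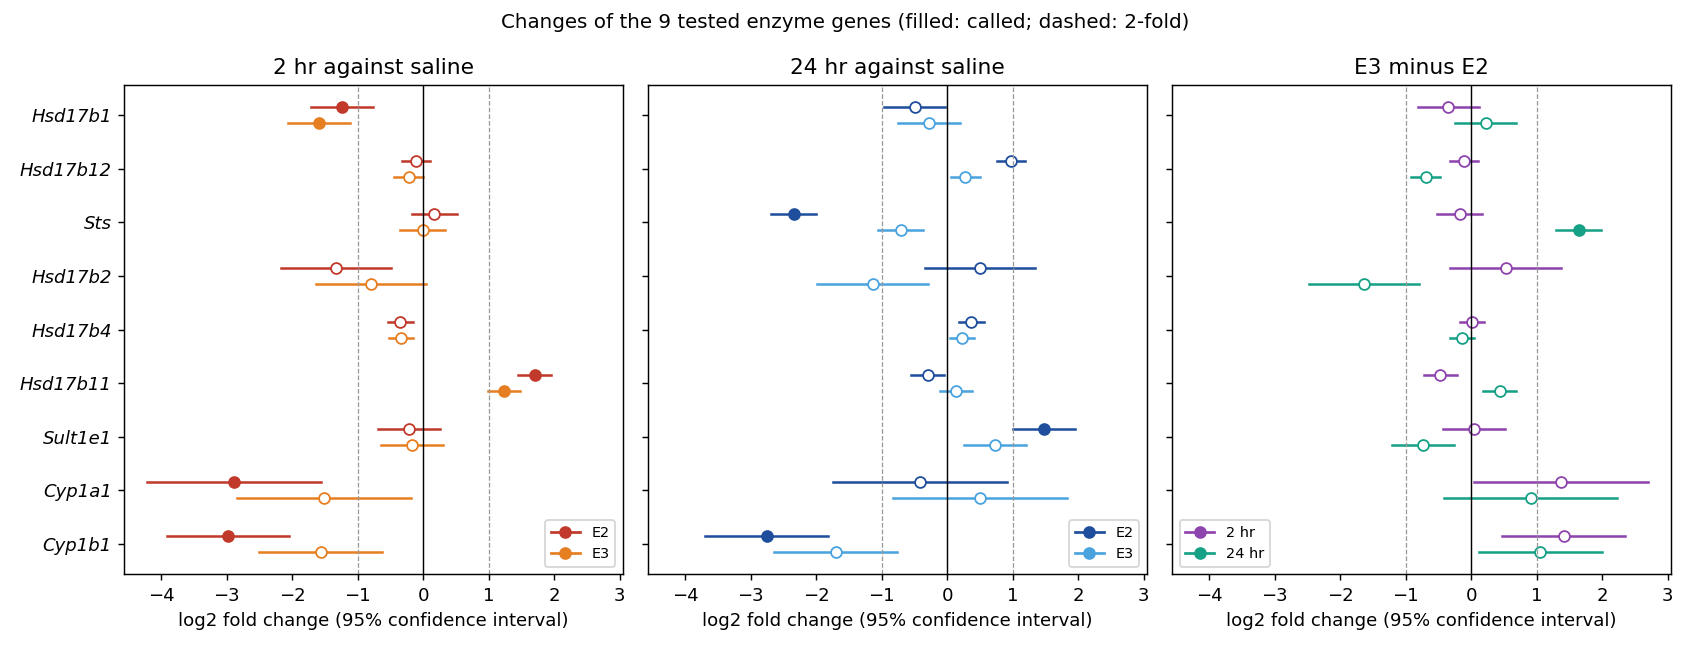
Log2 fold changes (x axis) of the 9 tested genes (y axis) with 95% confidence intervals from limma, at 2 hr against saline (left), 24 hr against saline (middle), and E3 minus E2 (right). Filled points passed both cutoffs and dashed lines mark 2-fold. In the right panel only Sts at 24 hr is filled, at 1.64.

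Among the enzymes that form or release active estrogen, Hsd17b1, whose enzyme reduces estrone to E2, fell at 2 hr and was near its saline level at 24 hr (probe at chr11:101189262-101189321 in mm7). Its levels were -3.90, -3.99, and -3.98 on the saline arrays. They were -4.59, -5.33, and -5.69 at 2 hr of E2 and -5.47, -5.45, and -5.74 at 2 hr of E3. All 6 arrays of the 2-hr groups lay below all 3 saline arrays. The change was -1.24 ± 0.216 (log2 fold change ± SE, 3 arrays per group, limma adjusted p = 0.000297) after E2 and -1.59 ± 0.216 (adjusted p = 6.57e-05) after E3, a 2.37-fold and a 3.01-fold reduction. With normexp background correction neither Hsd17b1 change was called (-0.80 with a p-value of 0.0646 after E2 and -1.06 with a p-value of 0.0196 after E3). Without replicate 3 of E2 at 2 hr the first fell just short of 2-fold (-0.997). Saline replicate 3 shares a slide with the 3 arrays of E3 at 2 hr, and within that slide the E3 change was -1.57 with a p-value of 0.00112, the lone saline array being taken to vary like the others. At 24 hr the levels were -4.62, -4.40, and -4.34 after E2 and -4.42, -4.12, and -4.16 after E3. Each of these 6 arrays still lay below the 3 saline arrays, but the changes of -0.50 (adjusted p = 0.0635) and -0.28 (adjusted p = 0.35) were not called.

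Hsd17b12 encodes a ketoacyl-CoA reductase of fatty acid elongation that can also reduce estrone, and its 2 probes gave different answers. The brightest probe (chr2:93884278-93884337 in mm7) read -0.10, -0.15, and -0.16 on the saline arrays, 0.89, 0.70, and 0.92 at 24 hr of E2, and 0.23, 0.25, and -0.06 at 24 hr of E3. All 3 arrays of E2 at 24 hr were above all others. The E2 change at 24 hr was 0.97 ± 0.0995 (adjusted p = 6.13e-06), 1.96-fold and so just under the cutoff, and the E3 change was 0.28 (adjusted p = 0.0483). At 2 hr this probe changed by -0.11 after E2 and -0.22 after E3, neither called. The other probe of Hsd17b12, 81.3 kb away on the same chromosome, instead rose by 1.29 ± 0.105 at 2 hr of E2 (adjusted p = 6.17e-07, called) and was 0.68 higher at 2 hr of E3 (adjusted p = 0.000176, under 2-fold). At 24 hr it differed from saline by 0.02 after E2 and -0.60 after E3. No sequence of these probes was compared with transcripts here, and which transcripts each detects was not tested.

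Sts, the gene of steroid sulfatase, which frees estrone and other steroids from their sulfates, fell at 24 hr and most after E2. Its levels were 1.62, 1.26, and 1.53 on the saline arrays, 1.83, 1.29, and 1.79 at 2 hr of E2, and 1.61, 1.55, and 1.22 at 2 hr of E3. These 9 arrays overlapped group by group. At 24 hr the levels were -0.85, -0.79, and -0.99 after E2 and 0.71, 0.66, and 0.92 after E3, so that the 3 groups of saline, E3, and E2 formed 3 ranges without overlap. The E2 change at 24 hr was -2.34 ± 0.157 (adjusted p = 4.19e-07), a 5.08-fold reduction, and the E3 change was -0.71 ± 0.157 (adjusted p = 0.00503), a 1.63-fold reduction that did not reach the 2-fold cutoff. Changes at 2 hr were 0.17 after E2 (95% confidence interval -0.17 to 0.51) and -0.00 after E3 (-0.35 to 0.34). The array annotation gives no position for the Sts probe.

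Among the enzymes that inactivate estrogen, Hsd17b2, which oxidizes E2 to estrone, was measured close to the lowest detectable level (chr8:116371550-116371609 in mm7). Its levels were -5.59, -6.96, and -7.27 on the saline arrays and -6.34, -6.35, and -5.62 at 24 hr of E2. They were -7.74, -8.23, and -7.26 at 24 hr of E3, where only replicate 3 was well above background. At 2 hr they were -7.34, -7.13, and -7.76 after E3 and -7.99, -8.00, and -7.82 after E2, the last group not well above background on any array. The saline arrays and the E2 24-hr arrays thus overlapped, and saline replicate 1, with the highest saline level, also had the highest liver sum (30.3). Hsd17b2 changed by -1.33 at 2 hr of E2 against saline (confidence interval -2.17 to -0.49, adjusted p = 0.00974, not called). With the dim group set at its own signal or the lowest signal above background, whichever was higher, the means differed 2.37-fold. That figure holds no sampling error and is not a lower limit of the change. Without saline replicate 1 that change was -0.82 (adjusted p = 0.033) in place of -1.33. The change of Hsd17b2 against saline was 0.50 (adjusted p = 0.279) at 24 hr of E2 and -1.14 (adjusted p = 0.039) at 24 hr of E3, and without saline replicate 1 the latter was -0.63 (adjusted p = 0.132). The liver is a known site of this enzyme. The liver sum was 30.3, 9.95, and 8.89 on saline replicates 1, 2, and 3, the order of their Hsd17b2 levels. The 3 arrays of E2 at 24 hr stood at -6.35 to -5.62 with a liver sum of 0.689 to 0.814. The part of liver RNA in these levels was not tested.

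**Figure D3:**
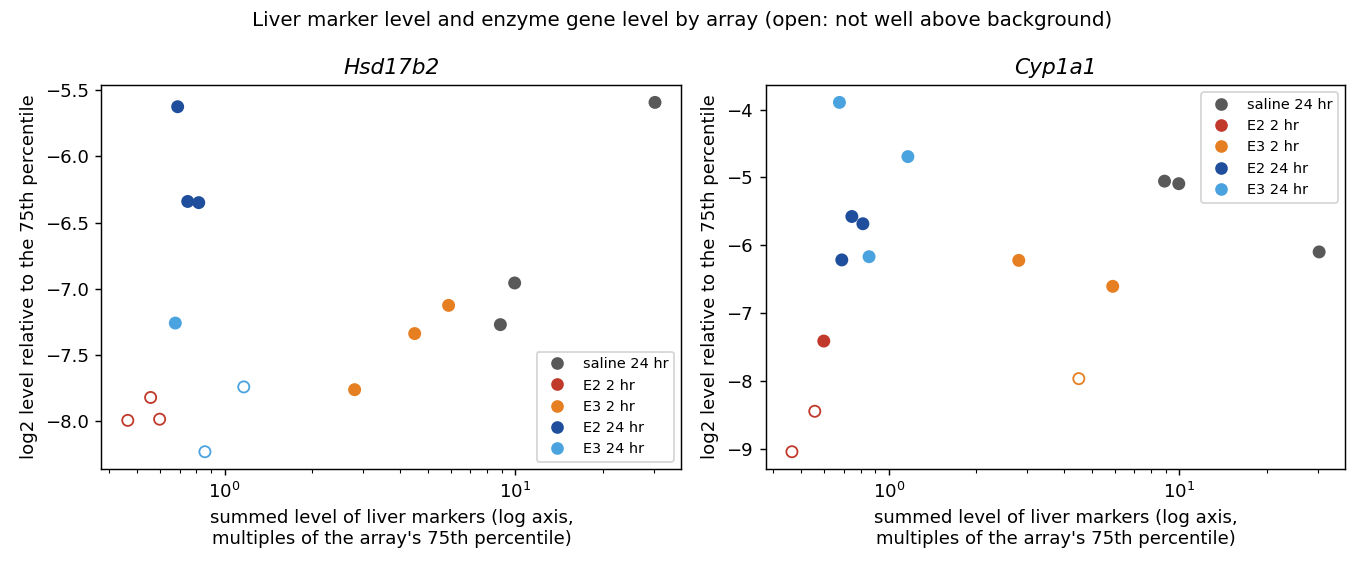
Normalized log2 level of Hsd17b2 (left) and Cyp1a1 (right) against the liver sum of the same array (log axis), with 1 point per array colored by group and open where not well above background. Hsd17b2 is highest on the saline array with a liver sum of 30.3 and nearly as high on an E2 24-hr array with a liver sum of 0.689.

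Hsd17b4, whose multifunctional peroxisomal enzyme oxidizes both steroids and fatty acids, was well above background throughout and moved little. Its group means were 3.23 ± 0.0629 (SD, n = 3) on the saline arrays, 2.88 ± 0.157 and 2.89 ± 0.0813 at 2 hr of E2 and E3, and 3.60 ± 0.0169 and 3.46 ± 0.0681 at 24 hr. Both 2-hr groups lay below the saline arrays and both 24-hr groups above them, without overlap. Changes of Hsd17b4 against saline were -0.35 (adjusted p = 0.00346) and -0.34 (adjusted p = 0.00566) at 2 hr, and 0.37 (adjusted p = 0.00254) and 0.23 (adjusted p = 0.0578) at 24 hr, all under 2-fold.

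Sult1e1 encodes estrogen sulfotransferase, which adds a sulfate to E2 and estrone (chr5:87512926-87512985 in mm7). Its levels were -7.25, -7.56, and -7.67 on the saline arrays, -8.06, -7.26, and -7.82 at 2 hr of E2, and -7.75, -7.81, and -7.44 at 2 hr of E3. Only 1 array of each 2-hr group was well above background. At 24 hr the levels were -6.32, -5.90, and -5.84 after E2 and -6.45, -6.85, and -6.97 after E3, all 6 above the 9 arrays of the other groups. Sult1e1 rose by 1.47 ± 0.217 (adjusted p = 9.65e-05), 2.77-fold, after E2 at 24 hr, and the E3 change of 0.73 ± 0.217 (adjusted p = 0.0218) was not called. With normexp background correction the E2 change was 0.51 with a p-value of 0.436, so the call depends on how the dim signals were corrected.

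Hsd17b11 encodes a dehydrogenase of lipid droplets that acts on androgen metabolites. Of the brightest probes of the 9 tested genes, its probe was the only one called higher at 2 hr. This probe (chr5:103179411-103179470 in mm7) read 4.05, 3.89, and 3.96 on the saline arrays, 5.52, 5.74, and 5.73 at 2 hr of E2, and 5.23, 5.37, and 4.99 at 2 hr of E3. All 6 arrays of the 2-hr groups were above all 9 others. The rise was 1.70 ± 0.114 (adjusted p = 1.46e-07), 3.25-fold, after E2 and 1.23 ± 0.114 (adjusted p = 3.35e-06), 2.35-fold, after E3. Within the slide that holds 1 saline array and the 3 of E3 at 2 hr it was 1.24, with a p-value of 0.00381. At 24 hr Hsd17b11 read 3.53, 3.77, and 3.69 after E2 and 4.23, 4.12, and 3.96 after E3. The 24-hr changes against saline were -0.30 (adjusted p = 0.0374) and 0.14 (adjusted p = 0.388).

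The other Hsd17b11 probes also rose at 2 hr, by different amounts. The probe 2.71 kb from the brightest rose by 1.27 after E2 and 1.74 after E3, and the probe 11.7 kb away, designed on a cDNA sequence, rose by 3.27 and 2.54. All 3 probes were called at 2 hr for both compounds and at 24 hr for neither. They differed in the order of the compounds, since E3 minus E2 at 2 hr was -0.47, 0.47, and -0.73 (adjusted p = 0.00575, 0.00637, and 0.00669), none of it 2-fold.

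**Figure D4:**
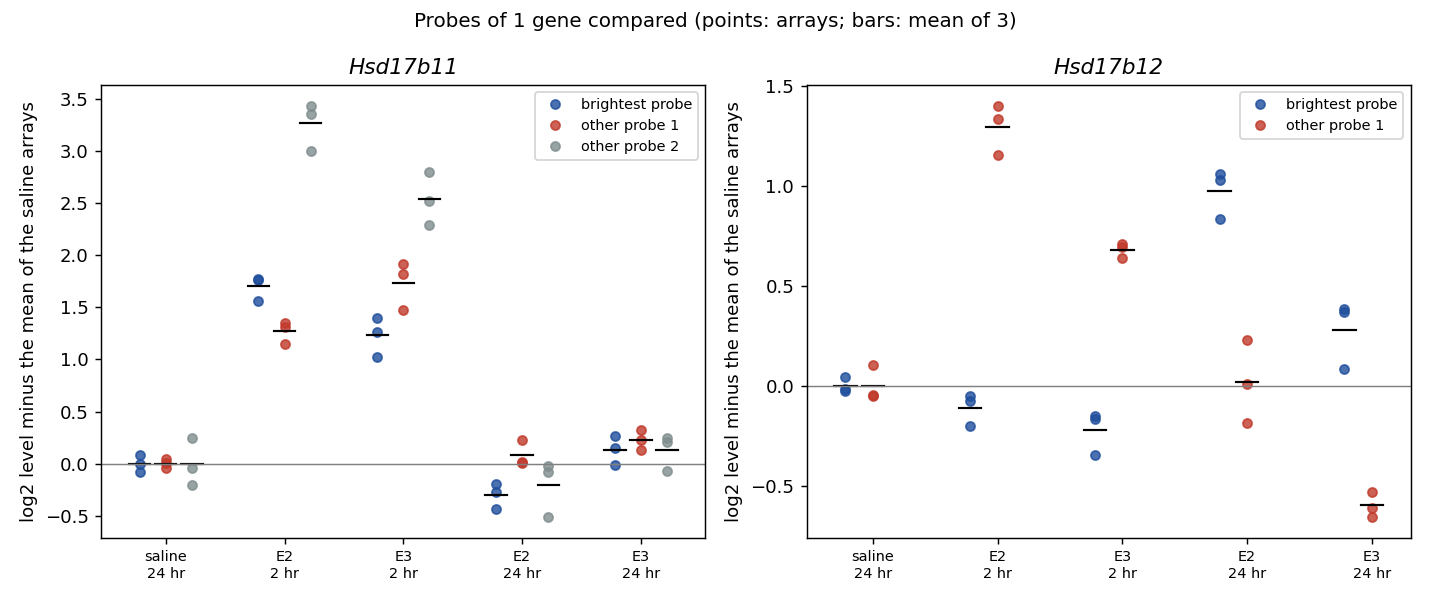
Log2 level of each probe minus its mean on the saline arrays, for the 3 probes of Hsd17b11 (left) and the 2 of Hsd17b12 (right), by group. Points are arrays and bars are means of 3. All Hsd17b11 probes lie above 1 at 2 hr, and the Hsd17b12 probes part at 2 hr of E2 (-0.11 and 1.29) and at 24 hr of E2 (0.97 and 0.02).

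Of the genes of the hydroxylating enzymes, Cyp1b1, whose enzyme forms catechol estrogens in extrahepatic tissue, was lower than saline on each of the 12 treated arrays (chr17:78002920-78002979 in mm7). Its levels were -2.16, -1.69, and -2.03 on the saline arrays, -3.83, -5.77, and -5.23 at 2 hr of E2, and -2.90, -3.61, and -4.06 at 2 hr of E3. At 24 hr they were -4.73, -4.24, and -5.18 after E2 and -3.52, -3.80, and -3.67 after E3. The spread was widest at 2 hr of E2, where replicate 1 was the highest. Cyp1b1 fell by 2.98 ± 0.430 on the log2 scale (adjusted p = 6.93e-05), 7.89-fold, at 2 hr of E2 and by 2.76 ± 0.430 (adjusted p = 0.000148), 6.76-fold, at 24 hr of E2. The E3 changes of -1.57 (adjusted p = 0.00919) at 2 hr and -1.70 (adjusted p = 0.00985) at 24 hr were over 2-fold in size but missed the p-value cutoff in the fit over 15 arrays. In a fit of the 12 C57bl6/J arrays the same Cyp1b1 changes had p-values of 0.000369 and 0.000193, both past the cutoff. A further probe named Cyp1b1, 5.63 kb away, was not well above background on any array.

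Cyp1a1, the classical target gene of the Ah receptor, was lowest at 2 hr of E2 (chr9:57731394-57731453 in mm7). Its levels were -6.10, -5.09, and -5.05 on the saline arrays, -7.41, -9.05, and -8.45 at 2 hr of E2, and -7.97, -6.61, and -6.22 at 2 hr of E3. Only replicate 1 of E2 and replicates 2 and 3 of E3 were well above background at 2 hr, and all 6 of these arrays were below the saline arrays. At 24 hr Cyp1a1 read -5.58, -5.68, and -6.22 after E2 and -4.69, -6.17, and -3.89 after E3, which overlapped the saline arrays. The E2 change at 2 hr was -2.89 ± 0.609 (adjusted p = 0.00126, called), and the E3 change was -1.52 ± 0.609 (adjusted p = 0.0557). Replicates 2 and 3 of E2 lay below the lowest level well above background of their arrays (-8.01 and -7.77), so the size of the Cyp1a1 reduction is not fixed by these signals. The E2 call was lost without saline replicate 2 or 3 or without E2 replicate 2 or 3 (p-values of 0.00218 to 0.00306), with changes of -2.81 to -2.52. It was also lost with normexp background correction (p-value of 0.0727, about 2-fold). The Cyp1a1 changes at 24 hr were -0.41 (adjusted p = 0.58) and 0.50 (adjusted p = 0.567).

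Genes of the Ah receptor pathway were examined beside the CYP1 genes. Of 6 tested, 1 was called higher and 2 lower at 2 hr of either compound, and 1 was called higher at 24 hr of E3. Of all probes, 10.6% were called higher and 10.7% lower at 2 hr of E2, 4.68% and 9.11% at 2 hr of E3, and 1.85% higher at 24 hr of E3. Ahr itself, the receptor, fell by 1.61 ± 0.121 (adjusted p = 3.5e-07) on the log2 scale at 2 hr of E2 and by 1.36 ± 0.121 (adjusted p = 2.61e-06) at 2 hr of E3. Ahrr, a repressor of the receptor and itself an Ah receptor target, fell by 1.91 after E2 and 1.01 after E3, the latter call being lost under several alternatives. At 24 hr Ahrr was 1.19 above saline after E3 (adjusted p = 0.00151), and E3 exceeded E2 by 1.75 (adjusted p = 9.63e-05). Tiparp, which encodes an ADP-ribosyltransferase that dampens Ah receptor activity, rose by 3.14 after E2 and 2.84 after E3 at 2 hr. At 2 hr of E2, Ahr, Ahrr, Cyp1a1, and Cyp1b1 were all lower and Tiparp higher.

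**Figure D5:**
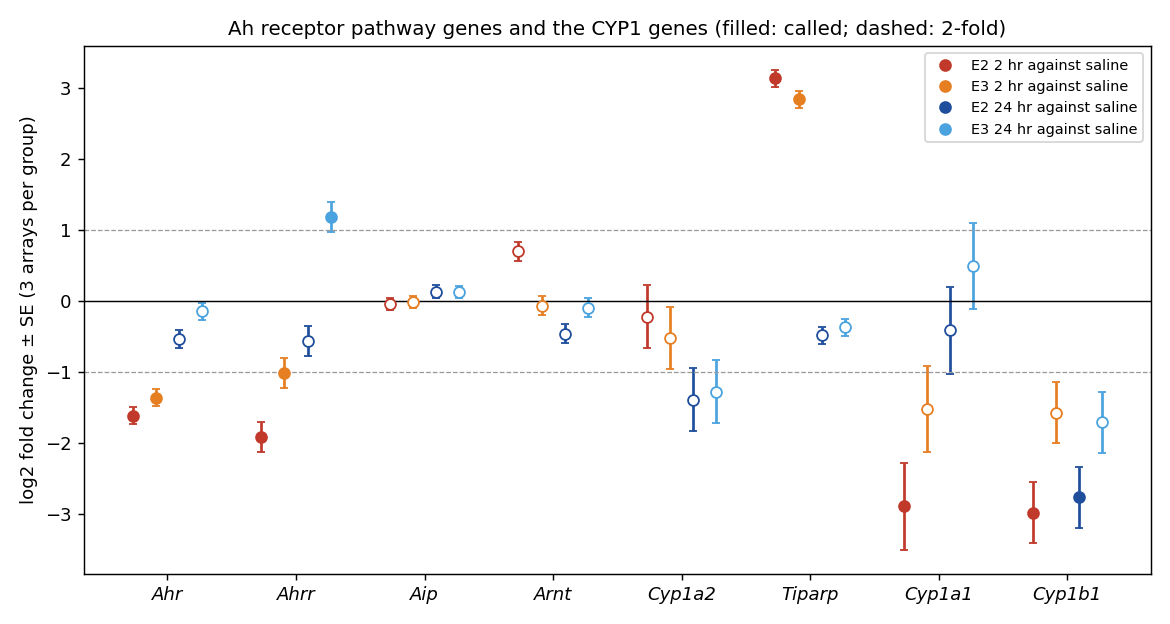
Log2 fold change against saline with its SE (y axis) for 6 genes of the Ah receptor pathway and for Cyp1a1 and Cyp1b1 (x axis), in the 4 treated groups of 3 arrays. Filled points were called and dashed lines mark 2-fold. Tiparp stands at 3.14 and 2.84 at 2 hr while Ahr, Ahrr, Cyp1a1, and Cyp1b1 lie below -1 in both 2-hr groups.

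E3 and E2 were compared directly at the same dose and time, for 9 genes at each of 2 times. At 24 hr 1 gene, Sts, was called, and it was higher after E3 by 1.64 ± 0.157 (adjusted p = 2.42e-05), 3.11-fold, where 4.85% of all probes were called. At 2 hr none was called by limma, where 7.37% of all probes were called, and 3 of 9 genes had an unadjusted p-value under 0.05 (51.4% of all probes). The E3 minus E2 difference of Sts itself differed between the times, by 1.81 ± 0.223 (adjusted p = 6.5e-05), and Sts was the only one of the 9 genes called in this interaction, against 15.5% of all probes. The interaction rests on the E2 2-hr arrays of the other strain label and scanner.

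Other differences between the compounds at 24 hr did not pass the cutoffs. Hsd17b2 was lower after E3 by 1.64 (95% confidence interval of the difference -2.48 to -0.80, adjusted p = 0.00582), with no overlap of the arrays, though only 1 of 3 E3 arrays was well above background and the size is not fixed by these signals. It passed when saline replicate 1 or 3 or E3 replicate 3 was left out, with quantile normalization, or with no scaling between arrays. With normexp background correction its direction turned, to 0.73 with a p-value of 0.292. Hsd17b12 was lower after E3 with both probes, by 0.69 (adjusted p = 0.000272) with the brightest and by 0.62 (adjusted p = 0.000816) with the other. Sult1e1 was lower after E3 by 0.74 (-1.21 to -0.27, adjusted p = 0.0187), a direction that normexp also turned, to 0.73. The brightest Hsd17b11 probe was 0.43 higher after E3 (0.19 to 0.68, adjusted p = 0.0106). The other probes of Hsd17b11 were 0.15 and 0.33 higher (adjusted p = 0.349 and 0.178), with overlapping arrays. Cyp1b1 was 1.05 higher after E3 (0.12 to 1.99, adjusted p = 0.0747). For Hsd17b4 the interval of the E3 minus E2 difference was -0.33 to 0.04, which leaves out a 2-fold difference in either direction. For Hsd17b1 it was -0.25 to 0.69 and for Cyp1a1 -0.42 to 2.23, the last including differences over 2-fold.

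At 2 hr the E3 minus E2 difference of Cyp1b1 was 1.41 (0.48 to 2.35, adjusted p = 0.0191), with lower levels after E2 and with overlapping arrays. For Cyp1a1, 2 of 3 arrays of E2 and 1 of 3 of E3 were not well above background, and the size of its difference is not fixed by these signals. Without replicate 1 of E2 the Cyp1b1 difference was 1.97 with a p-value of 0.000102 and was called. The intervals of Hsd17b1 (-0.82 to 0.12), Hsd17b4 (-0.18 to 0.20), the brightest Hsd17b12 probe (-0.33 to 0.10), and Sts (-0.52 to 0.17) at 2 hr leave out a difference of 2-fold. The other Hsd17b12 probe was lower after E3 at 2 hr, by 0.61 (-0.84 to -0.39, adjusted p = 0.000618), under 2-fold. Sult1e1 was well above background on 1 of 3 arrays of each 2-hr group, and no difference between the compounds can be read there. Compound and strain label cannot be told apart in these values.

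Between 2 and 24 hr of E2, 5 genes were called, Hsd17b2, Hsd17b12, and Sult1e1 higher and Hsd17b11 and Sts lower at 24 hr, against 31.1% of all probes. Between 2 and 24 hr of E3, 2 were called, Hsd17b1 higher by 1.32 (adjusted p = 0.000237) and Hsd17b11 lower by 1.10 (adjusted p = 6.64e-06), against 16.1% of all probes. The E2 change of Hsd17b2 was 1.83 (confidence interval 0.99 to 2.67). Its 2-hr group was not above background, and with that group set as described above the means differed 3.36-fold, which is not a lower limit. For Sult1e1 the E2 change was 1.69, with 1 of 3 arrays above background at 2 hr, so the size is not fixed. The other E2 changes were 1.08 for the brightest Hsd17b12 probe, -2.00 for Hsd17b11, and -2.52 for Sts. The other Hsd17b12 probe was called in the opposite direction, at -1.28 after E2 (adjusted p = 3.51e-07) and -1.28 after E3 (adjusted p = 1.06e-06), so the 2 probes give no single direction for this gene. The Hsd17b12 call was lost with no scaling between arrays (0.97, under 2-fold). The Hsd17b2 call was lost without any single array of either E2 group (changes of 1.59 to 1.95). With normexp background correction the Hsd17b2 and Sult1e1 calls were lost, at 0.56 and 0.65. E2 at 2 and 24 hr differ in strain label as well, whereas the E3 groups share theirs.

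Other genes of steroid metabolism were counted together with those of the Ah receptor pathway and of estrogen receptors and targets. These lists hold 52 genes, of which 49 were on the array and 47 were tested. Of these, 4 were called higher and 7 lower at 2 hr of E2, 3 and 5 at 2 hr of E3, 6 and 4 at 24 hr of E2, and 2 and 3 at 24 hr of E3. Those called higher at 2 hr were Tiparp, Greb1, Pgr, and Akr1c14 after E2, and Tiparp, Greb1, and Pgr after E3. Of these only Akr1c14 is on a list of steroid metabolism. The shares of all probes called higher and lower were 10.6% and 10.7%, 4.68% and 9.11%, 6.93% and 11.1%, and 1.85% and 1.96%.

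On the list of conjugation and deconjugation (16 tested), 4 genes were called at 2 hr of E2, all lower, 2 lower at 2 hr of E3, 2 higher and 2 lower at 24 hr of E2, and 2 lower at 24 hr of E3. Of all probes, 10.7% were called lower at 2 hr of E2 and 9.11% at 2 hr of E3. At 24 hr, 6.93% were called higher and 11.1% lower after E2, and 1.96% lower after E3. Sult1a1, a phenol sulfotransferase, fell by 1.95 ± 0.285 (adjusted p = 8.71e-05) at 24 hr of E2. Sult1d1, a sulfotransferase of catecholamines, fell by 1.79 at 24 hr of E2 and by 1.01 (adjusted p = 0.00502) at 24 hr of E3. Sult1b1, which sulfates thyroid hormones, was lower by 1.98 and 1.93 at 2 hr and by 1.59 at 24 hr of E3, but it was well above background on 1 of 3 arrays in each of these groups, and with normexp background correction both Sult1b1 calls at 2 hr were lost (-0.57 and -0.52, with p-values of 0.403 and 0.446) and it was 0.69 higher at 24 hr of E3. These sulfotransferases are also made in liver, and the liver sum was highest on the saline arrays. The part of liver RNA in these changes was not tested.

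Of 6 other hydroxysteroid dehydrogenases of the Hsd17b series, Hsd17b7, which also serves cholesterol synthesis, was the only one called against saline. It rose by 1.28 ± 0.182 (adjusted p = 7.39e-05) at 24 hr of E2, where 6.93% of all probes were called higher. At that time it was 1.41 lower after E3 than after E2 (adjusted p = 0.000139). On the list of steroid synthesis and reduction (14 tested), 1 gene was called higher at 2 hr of E2 (10.6% of all probes). At 24 hr of E2, 1 was called higher and 2 lower (6.93% and 11.1% of all probes), and at 24 hr of E3 1 lower (1.96%). Hsd11b2, which inactivates glucocorticoids, rose by 2.37 ± 0.242 (adjusted p = 6.13e-06) and Hsd11b1, which reactivates them, fell by 1.88 ± 0.135 (adjusted p = 6.22e-07) at 24 hr of E2. E3 minus E2 at 24 hr was -2.44 for Hsd11b2 and 1.04 for Hsd11b1, both called. Akr1c14, a hydroxysteroid dehydrogenase that reduces progestins and androgens, rose by 1.85 at 2 hr of E2 and was 1.03 lower after E3. The calls of Sult1d1 at 24 hr of E3 and of Akr1c14 and Hsd11b1 between the compounds each missed a cutoff without single arrays, as did that of Sult1b1 at 24 hr of E3.

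Estrogen receptors and targets were examined as a check of the treatments. Of 5 tested, 2 were called higher and 1 lower at 2 hr of each compound, against 10.6% and 10.7% of all probes after E2 and 4.68% and 9.11% after E3. Greb1, an early estrogen receptor target, rose by 4.51 after E2 and 3.71 after E3 at 2 hr, and Pgr, the progesterone receptor, by 2.44 and 2.12. Gper1, a membrane receptor for estrogen, fell by 2.32 after either compound. At 24 hr 2 genes of this list were called higher after E2 and 1 after E3 (6.93% and 1.85% of all probes), and Pgr was 1.09 above saline after E2 (adjusted p = 4.27e-06).

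The genes whose levels ran most like those of each changed enzyme over the 15 arrays were found by Pearson correlation, which over 5 groups of 3 mostly follows the group means. Hsd17b11 was nearest to A330068P14Rik (r = 0.991), the sodium-proton exchanger gene Slc9a2 (0.987), and Lzts2 (0.986). For Sts they were 8430416H19Rik (0.984), 1110020C03Rik (0.982), and Unkl (0.980). Cyp1b1 was nearest to A930004K21Rik (0.947), the thrombin receptor gene F2r (0.942), and Abhd1 (0.933), and Cyp1a1 to Gpr109a (0.946), Tyk2 (0.941), and Mast3 (0.933). Sult1e1 was nearest to 1700019N19Rik (0.969), Mad1l1 (0.968), and 9630008K15Rik (0.968), and Hsd17b1 to E130112L23Rik (0.973), F830014O18Rik (0.972), and D130020G16Rik (0.971). All share the same arrays and scaling, and no p-value is given.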

How the data were processed

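RNA of mouse uterus was labeled with Cy3 by the authors and hybridized to one-color Agilent Whole Mouse Genome arrays. The deposited values are processed intensities from Agilent Feature Extraction 9.5.3.1, per the file headers, with background subtracted and without scaling between arrays. A deposited table of the whole series repeats these intensities. The arrays lie on 7 slides.

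The analysis used R 4.3.3, limma 3.58.1, python 3.11.15, and matplotlib 3.10.9. Spots with an outlier flag (1893 over the 15 arrays) were set aside, spots of 1 probe were averaged, and log2 intensities were centered on the 75th percentile of each array, which was 2989 to 4412 intensity units. Between 77.8% and 81.8% of probes per array were well above background. A probe entered the tests when 2 or more arrays of some group were well above background (34776 of 41174), with 5 group means in limma over the 15 arrays. Precision is limited by the number of arrays. The procedure was tested on simulated data. Genes are given by the probe with the highest mean over the 15 arrays, other probes where they disagree, and lists by counts and at most the 3 largest called changes. The 3 most correlated genes are named for each enzyme called against saline. The members and lists were chosen with earlier results of these data known. Marker lists covered uterus, liver, exocrine pancreas, ovary, fat, skeletal muscle, lymphocytes, and blood. Fat, lymphocyte, and erythroid markers summed to 13.4 to 98.7, 1.13 to 17.5, and 17.0 to 64.4 over the arrays, and ovary markers to 0.611 to 1.32.

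The alternatives were other background correction, scaling, filters, cutoffs, and probe rules, slide and replicate blocks, the 12 arrays of 1 strain label, and leaving out each array. Names and lists by the array's own symbols (9 genes, without Hsd17b11) were added after seeing the data.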

Additional observations from a re-analysis of the deposited data

Results flagged for a closer look

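The change between 2 and 24 hr of 1 compound was called for 5 of the 9 genes after E2 (31.1% of all probes) and for 2 after E3 (16.1% of all probes). After E2 it was 1.83 for Hsd17b2 (confidence interval 0.99 to 2.67), whose 2-hr arrays were not above background. It was -2.00 for Hsd17b11, 1.08 for the brightest probe of Hsd17b12, and -2.52 for Sts. For Sult1e1 it was 1.69, with 1 of 3 arrays above background at 2 hr. All are log2 levels at 24 hr minus 2 hr from limma. The Hsd17b2 and Sult1e1 calls were lost with normexp, the former also without any single array of either E2 group, and the Hsd17b12 call with no scaling between arrays. The other Hsd17b12 probe was called in the opposite direction, at -1.28. After E3 it was 1.32 for Hsd17b1 and -1.10 for Hsd17b11. The E2 values cross the strain labels and scanners, and the E3 values do not.

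The difference between the compounds changed with time for Sts, with an E3 minus E2 difference 1.81 higher at 24 hr than at 2 hr on the log2 scale. The E2 2-hr arrays of the other strain label enter this value. In the direct comparison at 24 hr, which does not use them for its means, the Sts difference was 1.64.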

How the results depend on the processing

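Among the called changes of the 9 tested genes, none changed direction under the alternatives other than Hsd17b12 between 2 and 24 hr of E2, and the counts of called genes that moved by more than 1.5 times were as follows, with smaller moves of 1 gene left out. With normexp background correction the counts were 2 (E2 at 2 hr), 1 (E3 at 2 hr), 3 (E2 24 hr against 2 hr), and 1 (E3 24 hr against 2 hr). It also moved the median of all probes by 0.32 for E3 at 24 hr against saline and by 0.37 in the other comparisons with that group, against which its signs should be read. Normexp reversed values that were not called, to 0.50 for Hsd17b1 and 0.92 for Hsd17b2 at 24 hr of E3, to 0.73 for Hsd17b2 and 0.73 for Sult1e1 in E3 minus E2 at 24 hr, and to 0.60 and 0.66 for these 2 genes in the interaction. Of the list genes it reversed 1 called change, that of Sult1b1 at 24 hr of E3, to 0.69. Quantile normalization gave 2 genes for E3 against E2 at 24 hr, 1 higher and 1 lower, and 3 for the interaction, and turned Hsd17b11 at 24 hr of E3 to -0.0393. Without scaling these counts were 2 and 2, and a mean signal above 100 gave 3 for E2 24 hr against 2 hr. The mean of both Hsd17b12 probes reversed it to 0.59 (E2 at 2 hr), 0.23 (E3 at 2 hr), -0.16 (E3 at 24 hr), -0.10 (E2 24 hr against 2 hr), and -0.39 (E3 24 hr against 2 hr). With an adjusted p under 0.05 and 2-fold, 2 genes were called for E3 at 24 hr, 1 for E3 against E2 at 2 hr, and 2 each at 24 hr and for the interaction (5.37%, 10.1%, 6.15%, and 20.2% of all probes). With no minimum change there were 5 for E2 at 24 hr, 1 for E3 at 24 hr, 5 for E3 24 hr against 2 hr, and 2 each for E3 against E2 at 24 hr and the interaction (39.3%, 16%, 35%, 18.7%, and 25.2% of all probes). The 12 arrays of 1 strain label gave 1 for E3 at 24 hr. Within the slide shared by saline and E3 at 2 hr there were 0 calls, with fewer arrays in the fit. The 9 genes named by the array's own symbol gave 1 each for E3 at 2 hr and E3 24 hr against 2 hr.

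With each array left out, counts ran from 2 to 4 (E2 at 2 hr, 2 without replicate 3), 2 to 3 (E3 at 2 hr), 3 to 4 (E2 at 24 hr), 0 to 1 (E3 at 24 hr), 0 to 1 and 1 to 2 (E3 against E2 at 2 and 24 hr), 4 to 6 and 2 to 3 (24 hr against 2 hr of E2 and E3), and 1 to 2 (interaction). The causes of these shifts were not tested.

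Replicate numbers are shared by the groups, but the deviations of same-numbered arrays had correlations of -0.467 to 0.551, with 10 of 30 pairs above 0.1, and 5 of 15 arrays correlated best with their own number. The numbers were not taken as pairs. With replicate number as a block, the Hsd17b2 change between 2 and 24 hr of E2 (1.83) had a p-value of 0.00104 and was no longer called, which left 4 genes in that comparison, and no other call of the 9 genes changed. Dim signals limit Hsd17b2, Sult1e1, and Cyp1a1, which lie near the lowest detectable level, and the Hsd17b1 calls at 2 hr and between the E3 times (1.56, with a p-value of 0.0019) were lost with normexp although its signals were above background on all arrays.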
